A study of Mus musculus with 8 samples.

Results

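The genes described here are 8 enzymes of serine synthesis and one-carbon metabolism, Phgdh, Psat1, Psph, Shmt1, Shmt2, Mthfd1, Mthfd2 and Mthfd1l, a set chosen by name among the 49315 genes in the count files. RNA came from OT-I CD8 T cells, which are cytotoxic T cells of mice with a transgenic receptor for an ovalbumin peptide. The cells of both arms carried a CD45.1 label in the protocols, were isolated as naive cells, kept in interleukin-7 (2.5 ng/ml) and interleukin-15 (50 ng/ml), and taken for RNA 7 days after Cas9 editing by nucleofection. The control arm (4 libraries) received a guide RNA against LacZ, a bacterial gene absent from mouse cells, and the Carm1 KO arm (4 libraries, called Carm1-edited below) a guide against Carm1, which encodes an arginine methyltransferase. The labels describe the 4 libraries of an arm as technical replicates and give no number of animals or cultures, so each p-value below measures the spread between libraries, and effects of the edit and of any separate handling of the arms cannot be told apart. The series text speaks of co-culture of both arms with B16F10-Ova melanoma cells, which the sample protocols do not mention.

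Serine is made from the glycolytic intermediate 3-phosphoglycerate in 3 steps, catalysed in turn by PHGDH, PSAT1 and PSPH. The SHMT enzymes then split serine into glycine and a one-carbon unit carried on folate, SHMT2 in mitochondria and SHMT1 in the cytosol. MTHFD2 and MTHFD1L oxidise that unit in mitochondria and release it as formate, which MTHFD1 reloads onto folate in the cytosol for purine and thymidylate synthesis. T cells are known to raise these enzymes when they are activated and start to divide.

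Transcripts of all 8 enzymes were lower in the Carm1-edited libraries. The falls ran from 1.53-fold for Psph to 10.1-fold for Mthfd1. The median log2 fold change (Carm1-edited minus control) was -2.02 over the 8 genes and 0.02 over the 14970 genes tested. All 8 passed the test (edgeR quasi-likelihood, adjusted p under 0.05) in the lower direction, in a comparison where 43.2% of all tested genes did so, 44.5% passed in the higher direction and 87.7% passed in either. Of the 8 genes, 7 were at least 2-fold lower, against 15.2% of all tested genes, and 4 were at least 4-fold lower, against 5.04% of all tested genes. The control and Carm1-edited libraries did not overlap for any of the 8, and 41.2% of tested genes were separated in that direction. In bulk RNA a lower share of cells that express a gene and less RNA per cell cannot be told apart.

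The promoters are shown because the 8 genes fell together. RefSeq (GRCm38.p6) gave promoter windows, 250 bases before to 50 after a start site, for 8 of 8 genes. The pentamer CCAAT, the core of the site bound by the factor NF-Y, was looked for after these windows had been read, so its count in them is not a test. On either strand it was in the windows of 6 of the 8 genes, Phgdh, Psat1, Psph, Shmt1, Mthfd1 and Mthfd2, and in those of 41.1% of the 27025 genes in the table. That table includes genes not tested here, and the share among the tested genes was not computed. The windows held 3 matches for Psat1 and Mthfd2, 2 for Phgdh and Psph, 1 for Shmt1 and Mthfd1, and 0 for Shmt2 and Mthfd1l. Below, capitals mark CCAAT or its reverse complement ATTGG. The Mthfd1 window (chr12:76254982-76255281, plus strand) belongs to the gene with the largest fall of the 8. Shmt2 (chr10:127522395-127522694, minus strand), Mthfd2 (chr6:83317555-83317854, minus strand) and Phgdh (chr3:98339920-98340219, minus strand) are shown as windows with other numbers of matches.
Mthfd1: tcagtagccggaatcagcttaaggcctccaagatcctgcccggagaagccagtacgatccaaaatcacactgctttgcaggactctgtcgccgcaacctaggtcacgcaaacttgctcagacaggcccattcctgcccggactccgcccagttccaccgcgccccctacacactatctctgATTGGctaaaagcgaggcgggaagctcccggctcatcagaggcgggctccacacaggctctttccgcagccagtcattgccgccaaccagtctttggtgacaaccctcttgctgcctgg
Shmt2: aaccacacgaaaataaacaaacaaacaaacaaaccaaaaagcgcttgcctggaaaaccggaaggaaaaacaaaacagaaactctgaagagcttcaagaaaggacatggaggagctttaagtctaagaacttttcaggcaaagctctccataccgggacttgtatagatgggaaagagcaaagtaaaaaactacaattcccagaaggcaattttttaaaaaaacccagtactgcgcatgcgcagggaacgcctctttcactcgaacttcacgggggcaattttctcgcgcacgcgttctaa
Mthfd2: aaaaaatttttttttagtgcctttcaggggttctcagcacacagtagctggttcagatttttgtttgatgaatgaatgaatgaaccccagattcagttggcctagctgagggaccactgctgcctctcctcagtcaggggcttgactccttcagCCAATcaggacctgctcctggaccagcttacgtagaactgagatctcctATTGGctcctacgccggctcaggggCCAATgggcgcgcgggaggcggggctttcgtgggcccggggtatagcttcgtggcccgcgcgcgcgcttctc
Phgdh: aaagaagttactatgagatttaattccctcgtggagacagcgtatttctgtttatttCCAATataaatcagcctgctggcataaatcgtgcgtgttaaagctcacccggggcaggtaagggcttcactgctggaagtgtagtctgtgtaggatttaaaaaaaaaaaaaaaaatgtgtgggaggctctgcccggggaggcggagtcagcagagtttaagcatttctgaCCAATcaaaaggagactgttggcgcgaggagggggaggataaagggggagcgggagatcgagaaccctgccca
Searched on both strands, TGATGNAA, a form of the site bound by ATF4, was in 0 of the 8 genes' windows and in 4.51% of genes in the table. CACGTG, the E-box bound by MYC, was in 0 of 8 and in 8.09% of genes, and TGACNNNGC, the core of the antioxidant response element bound by NRF2, was in 2 of 8 (Phgdh and Psph) and in 14.0% of genes. These letters can lie outside a window of this length, and a match is not a measured binding site.

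Levels below are CPM (counts per library brought to the same total) with TMM scaling factors, and means are given ± SD over 4 libraries. Phgdh (ENSMUSG00000053398, chromosome 3, 98313170 to 98339990, minus strand, mm10) encodes phosphoglycerate dehydrogenase, the first enzyme of serine synthesis. It was at 411, 425, 418 and 422 CPM in the control and 189, 180, 181 and 179 CPM in the Carm1-edited libraries. Every edited library lay below every control library, and the libraries of an arm were close together. The fall was 2.30-fold (log2 fold change -1.20 ± 0.023 SE, edgeR adjusted p = 1.6e-36). Phgdh has 13 near-identical copies in the annotation on the matching strand, processed pseudogenes that could share its reads. The 10 of them listed in the count files together held 1.08% to 1.47% of the Phgdh count in each library, and the most abundant, Gm7901, fell 2.29-fold.

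Psat1 (ENSMUSG00000024640, chromosome 19, 15904678 to 15947337, minus strand), the aminotransferase of the middle step, fell further. Its levels were 199, 209, 202 and 206 CPM in control and 52.1, 51.2, 55.0 and 52.0 CPM in Carm1-edited libraries. That is a 3.88-fold fall (log2 fold change -1.96 ± 0.026, edgeR adjusted p = 1.3e-41), again with no overlap between the arms.

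Psph (ENSMUSG00000029446, chromosome 5, 129765558 to 129787449, minus strand), the phosphatase that completes serine, changed least of the 8. The control libraries were at 43.5, 45.2, 46.9 and 47.7 CPM and the Carm1-edited libraries at 30.4, 28.7, 28.6 and 32.3 CPM. The arms were separate but closer than for any of the other 7 genes. The log2 fold change was -0.61 ± 0.038 (edgeR adjusted p = 9.0e-18). It was -0.40 with upper-quartile scaling, and a test against a 1.5-fold change did not call it (edgeR adjusted p = 0.17). Psph also shares 452 of its 4329 exon bases with Cct6a, a chaperonin subunit gene on the opposite strand. Cct6a was at 510 ± 8.49 and 113 ± 3.24 CPM, more abundant than Psph and 4.50-fold lower in the edited libraries. The library kit does not mark strand, and whether Cct6a reads entered the Psph count was not tested.

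**Figure D1:**
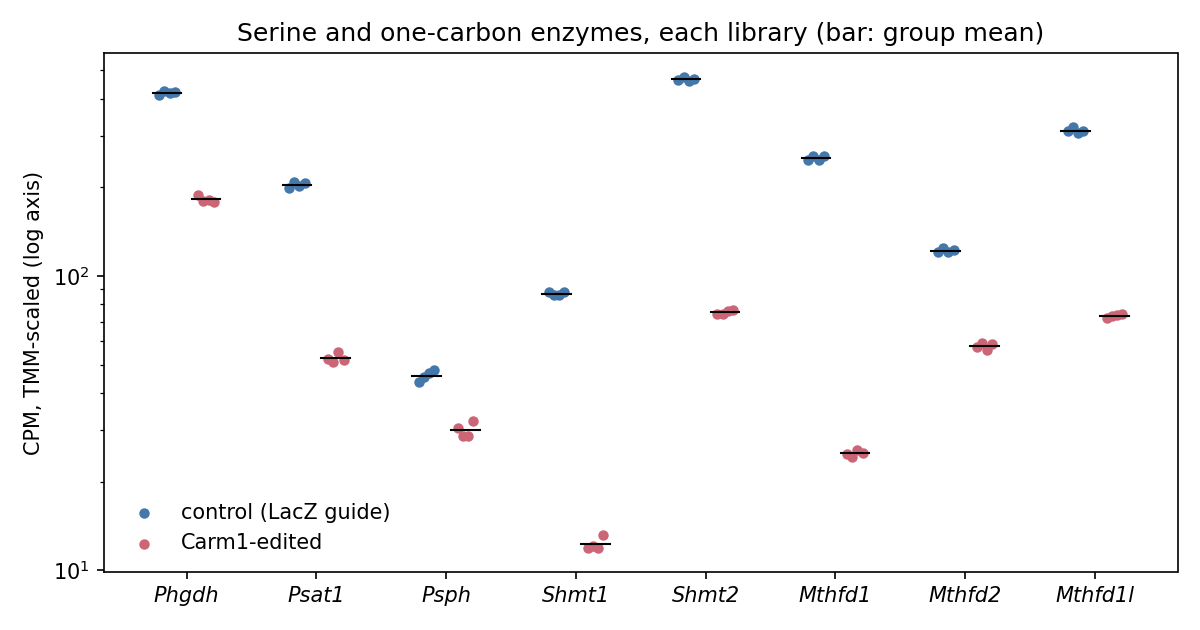
CPM with TMM scaling (log axis) of the 8 enzymes in each of the 4 control and 4 Carm1-edited libraries, with bars at the group means. For every enzyme the edited libraries lie below the control libraries, from Psph (45.8 and 30.0 CPM) to Mthfd1 (252 and 24.9 CPM).

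Both serine hydroxymethyltransferase genes fell, with larger fitted falls than the 3 serine synthesis genes, a difference between genes that was not itself tested. Shmt2 (ENSMUSG00000025403, chromosome 10, 127517123 to 127522444, minus strand), the mitochondrial enzyme, was at 463, 476, 460 and 467 CPM in control and 74.1, 74.1, 76.1 and 76.4 CPM in Carm1-edited libraries. The fall was 6.20-fold (log2 fold change -2.63 ± 0.023, edgeR adjusted p = 1.1e-47). Its edited libraries differed among themselves by a few CPM.

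Shmt1 (ENSMUSG00000020534, chromosome 11, 60788104 to 60811718, minus strand), the cytosolic enzyme, was at 88.2, 86.0, 85.9 and 88.4 CPM in control and 11.9, 12.1, 11.9 and 13.2 CPM in Carm1-edited libraries. It fell 7.11-fold (log2 fold change -2.83 ± 0.035, edgeR adjusted p = 6.6e-43). The edited libraries held 475 to 525 Shmt1 counts each, the fewest of the 8 genes. Shmt1 shares 184 of 3883 exon bases with Smcr8 on the opposite strand, and Smcr8 differed less, at 73.5 ± 1.60 and 56.0 ± 2.09 CPM.

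Among the folate enzymes, Mthfd1 had the largest fall of the 8 genes and Mthfd2 the smallest apart from Psph. Mthfd1 (ENSMUSG00000021048, chromosome 12, 76255232 to 76319820, plus strand) encodes the cytosolic enzyme that attaches formate to tetrahydrofolate and interconverts the loaded forms. It was at 249, 255, 248 and 255 CPM in control and 24.9, 24.2, 25.7 and 25.0 CPM in Carm1-edited libraries. The log2 fold change of -3.34 ± 0.027 (edgeR adjusted p = 1.0e-48) was matched or exceeded downwards by 314 of the 14970 tested genes, which is 2.10%, Mthfd1 included.

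Mthfd1l (ENSMUSG00000040675, chromosome 10, 3973118 to 4167081, plus strand), the mitochondrial enzyme that releases formate, was at 310, 321, 305 and 312 CPM in control and 72.0, 73.2, 73.9 and 74.3 CPM in edited libraries, 4.25-fold lower (log2 fold change -2.09 ± 0.024, edgeR adjusted p = 4.2e-44). Mthfd2 (ENSMUSG00000005667, chromosome 6, 83305691 to 83325908, minus strand), the mitochondrial dehydrogenase and cyclohydrolase, was at 121, 124, 120 and 122 CPM and 57.2, 59.1, 56.0 and 58.7 CPM. It fell 2.11-fold (log2 fold change -1.08 ± 0.025, edgeR adjusted p = 5.0e-33). The mitochondrial pair was thus reduced to unequal degrees, with no overlap between the arms for either gene.

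**Figure D2:**
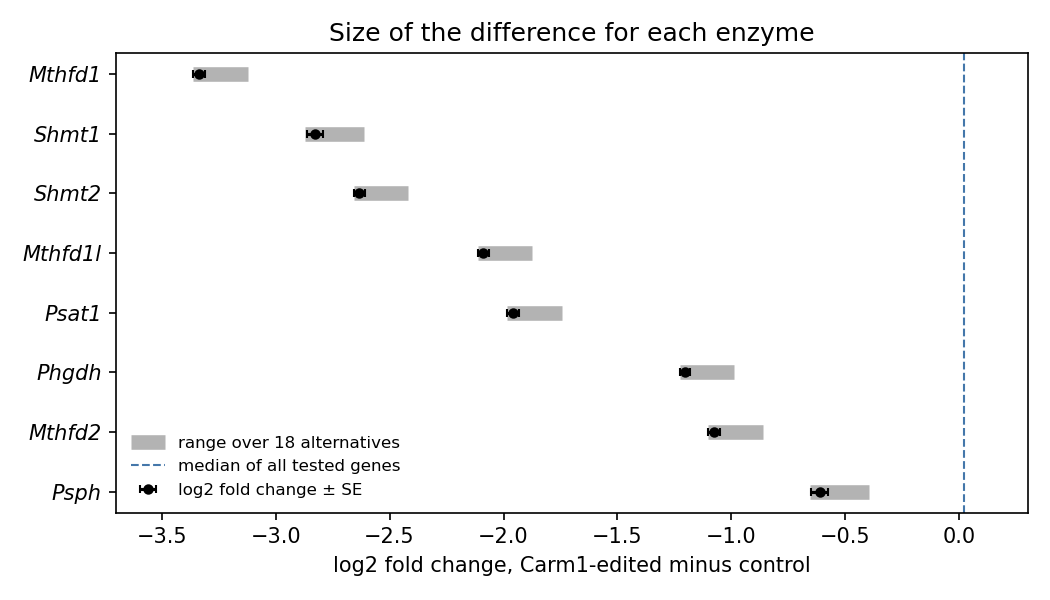
Log2 fold change (Carm1-edited minus control) of each enzyme with its SE (points and whiskers), the range over 18 alternative analyses (grey bars) and the median of all tested genes (dashed line). The values run from -0.61 for Psph to -3.34 for Mthfd1, and upper-quartile scaling gives the right-hand end of each grey bar.

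To compare one gene with another, counts were divided by the deposited exon length and set to the same total in each library (TPM), without TMM factors. In the control libraries the order was Shmt2 (503 ± 8.68 TPM), Phgdh (419 ± 5.46), Mthfd1 (188 ± 3.80), Mthfd1l (175 ± 3.92), Psat1 (119 ± 2.28), Mthfd2 (86.8 ± 1.49), Shmt1 (55.8 ± 1.82) and Psph (26.3 ± 1.08). No neighbours in that order overlapped between libraries. In the Carm1-edited libraries Phgdh was first (188 ± 6.15 TPM), ahead of Shmt2 (83.9 ± 3.23). Mthfd2 (42.6 ± 1.71) and Mthfd1l (42.6 ± 1.73) overlapped, as did Mthfd1 (19.3 ± 0.848) and Psph (17.8 ± 0.560), and Shmt1 (8.12 ± 0.358) was last. Mthfd1 thus moved from the third to the sixth place. The summed level of the 8 genes was 1538 to 1599 TPM in control and 423 to 449 TPM in edited libraries, of which Phgdh made up 26.6% and 43.4%.

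Ratios of related enzymes within a library do not depend on the scaling between libraries, and 4 ratios of length-scaled levels were compared. Mthfd2 to Mthfd1, a mitochondrial against a cytosolic enzyme, was 0.462, 0.464, 0.461 and 0.457 in control and 2.19, 2.32, 2.08 and 2.24 in Carm1-edited libraries. Mthfd1 RNA was the more abundant of the pair in all control libraries and Mthfd2 RNA in all edited libraries, a 4.79-fold change in the ratio. Mthfd1l to Mthfd1 moved from 0.929 ± 0.0125 to 2.21 ± 0.0496, a 2.37-fold change. Shmt2 to Shmt1 moved little, from 8.83, 9.32, 9.02 and 8.89 to 10.5, 10.3, 10.8 and 9.79, which is 1.15-fold. The mitochondrial form was therefore the more abundant SHMT transcript per length in all 8 libraries. Mthfd2 to its less abundant mitochondrial relative Mthfd2l fell from 101 ± 14.5 to 26.2 ± 2.39. Each of the 4 ratios gave p = 0.0286 in an exact two-sided permutation test of 4 against 4 libraries, the smallest that this design allows (adjusted p = 0.0286 over the 4 ratios). The ratios share genes and follow from the levels of the single genes, so these tests add no independent evidence. How many other gene pairs reach the same p-value was not computed.

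**Figure D3:**
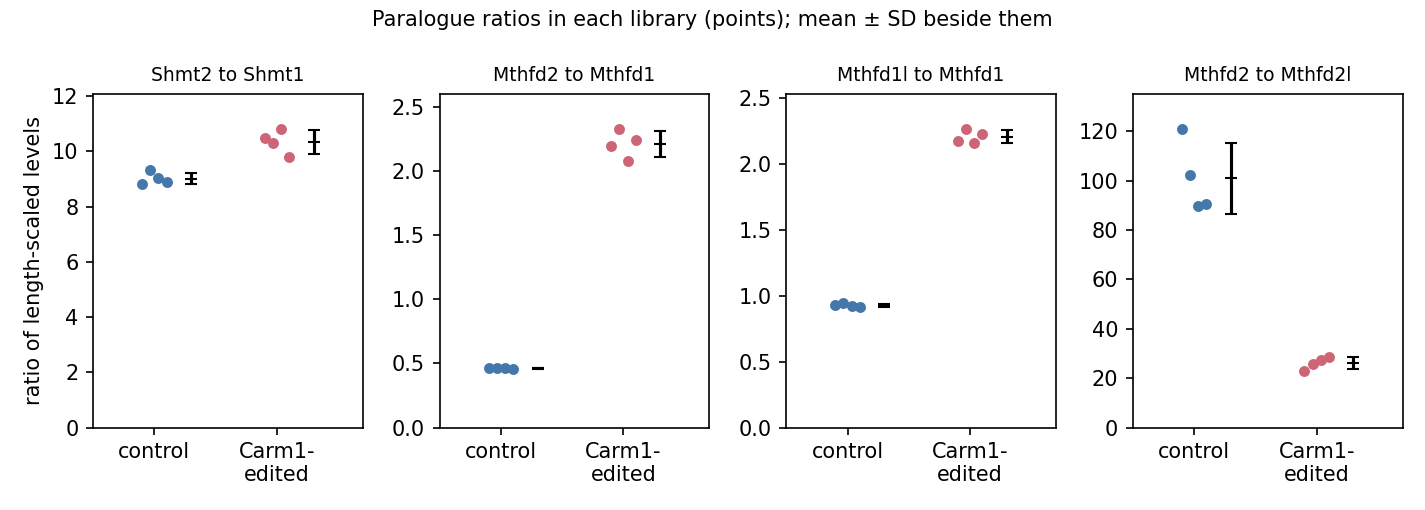
Ratio of length-scaled levels (vertical axes, starting at 0) for 4 pairs of related enzymes in each control and Carm1-edited library, with mean ± SD beside the points. The Mthfd2 to Mthfd1 ratio is below 1 in the 4 control libraries (0.461 ± 0.00300) and above 1 in the 4 edited libraries (2.21 ± 0.102), while the Shmt2 to Shmt1 ratio differs by 1.15-fold.

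The wider pathway was described with 10 lists of other genes, 97 in all, of which 82 were tested. Of these 55 were lower, 23 were higher and 4 did not pass the edgeR test. The list counts here and below are to be read against all tested genes, of which 43.2% were lower and 44.5% higher. The lists of other folate enzymes, of serine and glycine breakdown and of serine use in lipids were split in both directions, as all tested genes were. Among 9 tested other folate enzymes 5 were lower and 4 higher, with a median log2 fold change of -0.15. Tyms, the thymidylate synthase that uses the one-carbon unit, fell 1.95-fold. Fpgs, which adds glutamates that keep folate in the cell, fell 2.40-fold. Rises were found for Mthfs (2.58-fold), which returns formyl-folate to the active pool, and for Mthfd2l (2.33 ± 0.311 to 4.23 ± 0.397 CPM). All 3 tested folate carriers were lower, with a median log2 fold change of -1.33. They include Slc19a1, the reduced folate carrier of the cell surface, which fell 4.49-fold, and Slc25a32, the mitochondrial folate carrier, which fell 2.51-fold. The formyl-folate dehydrogenase Aldh1l2 reached at most 11 counts in a library and was not tested.

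Genes that use the one-carbon unit or its companion steps for nucleotide synthesis were mostly lower, 8 of 9, with a median log2 fold change of -1.41. Gart and Atic, which carry out the folate-dependent steps of purine synthesis, fell 5.04-fold and 3.39-fold, and Adsl and Ppat of the same route fell 3.49-fold and 2.94-fold. Paics fell by 0.26 on the log2 scale, at 305 ± 6.15 and 254 ± 3.42 CPM. Tk1, the salvage enzyme for thymidine, was at 14.7 ± 0.900 and 16.2 ± 0.684 CPM (log2 fold change 0.14 ± 0.050, edgeR adjusted p = 0.0083), a call lost without control replicate 4 (edgeR adjusted p = 0.091).

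Of the 8 tested methionine cycle and transsulfuration genes, 6 were lower and 1 was higher (median log2 fold change -1.03). Mat2a, which makes the methyl donor S-adenosylmethionine used by methyltransferases such as CARM1, fell from 388 ± 3.99 to 115 ± 2.80 CPM. Its regulatory subunit gene Mat2b rose from 108 ± 1.36 to 147 ± 4.23 CPM. Mtr, the folate-dependent methionine synthase, and Mtrr, which reactivates it, fell 1.72-fold and 2.42-fold. Ahcyl1, related to the enzyme that clears S-adenosylhomocysteine, did not pass, at 122 ± 1.74 and 124 ± 2.27 CPM (log2 fold change 0.03 ± 0.024), and was called higher with upper-quartile scaling, with library totals alone and with the 5 CPM filter. Cbs and Cth, which turn homocysteine and serine into cysteine, reached at most 4 and 11 counts in a library and were not tested.

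Serine and glycine transport genes were lower for 7 of 8 tested (median log2 fold change -0.59). Sfxn1, the mitochondrial serine transporter, fell 1.83-fold, and the plasma membrane carrier Slc38a2 fell 1.61-fold. The related sideroflexin gene Sfxn3 rose 1.48-fold. The transporter gene Slc1a5 was at 201 ± 6.35 and 188 ± 3.79 CPM, called lower with TMM factors (log2 fold change -0.10 ± 0.024) and higher with upper-quartile factors (0.11) and library totals alone (0.060). With the 5 CPM filter it was not called (-0.0072, edgeR adjusted p = 0.76). Of 6 tested genes of serine and glycine breakdown, 3 were lower and 2 higher (median -0.20). Gcsh, the carrier protein of the glycine cleavage system, fell 4.67-fold. Amt, the aminomethyltransferase of the same system, rose from 0.909 ± 0.0711 to 6.17 ± 0.395 CPM, and the decarboxylase gene Gldc of that system had at most 6 counts in a library.

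Around the entry point, 5 of 7 lower glycolysis genes were lower and 2 higher (median log2 fold change -0.42). Pgk1, whose enzyme makes 3-phosphoglycerate, fell 1.34-fold, and Gapdh fell 1.21-fold. Pgam1, whose enzyme carries 3-phosphoglycerate onward to pyruvate, fell 3.28-fold, Eno1 fell 3.96-fold and Pkm fell 3.12-fold. The 2 higher genes, Bpgm and Eno3, rose 1.38-fold and 1.49-fold. Differences between these genes were not themselves tested. Genes that put serine into lipids were split, with 3 lower and 4 higher (median 0.06). Serinc3, from a family named for serine incorporation into membranes, rose from 288.5 ± 0.821 to 899 ± 17.1 CPM, and Ptdss1, a phosphatidylserine synthase, fell 1.46-fold.

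Transcripts of transcription factors known to drive the serine and one-carbon genes were lower as well. Whether these factors have a part in the fall of the 8 enzymes was not tested, and their protein was not measured. Myc fell from 358 ± 9.60 to 124.5 ± 1.17 CPM, a 2.88-fold fall. Atf4, the factor of the amino acid response, fell from 238 ± 1.95 to 146 ± 2.39 CPM, and Nfe2l2, which encodes NRF2, fell 1.99-fold. Falls at least as large were found in 8.20% of all tested genes for Myc, 22.2% for Atf4 and 15.4% for Nfe2l2. Of the 10 regulators in the list 8 were lower and 2 higher, with a median log2 fold change of -0.54. Trp53, another transcription factor gene of the list, fell 2.19-fold. Eif2ak3, which encodes the kinase PERK upstream of ATF4 translation, rose 3.59-fold, and Eif2ak4 rose 1.19-fold with the arms overlapping. The 15 other known ATF4 targets were split, with 7 lower, 6 higher and 2 not passing (median -0.12). That split is close to the one over all tested genes, of which 43.2% were lower and 44.5% higher. The amino acid transporter genes Slc7a5 and Slc7a1 fell 10.5-fold and 5.12-fold. In contrast, Trib3, a pseudokinase of the stress response, rose 2.65-fold, Asns, the asparagine synthetase, rose from 4.54 ± 0.430 to 7.99 ± 0.385 CPM, and Ddit4, an mTORC1 inhibitor, rose 1.54-fold.

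**Figure D4:**
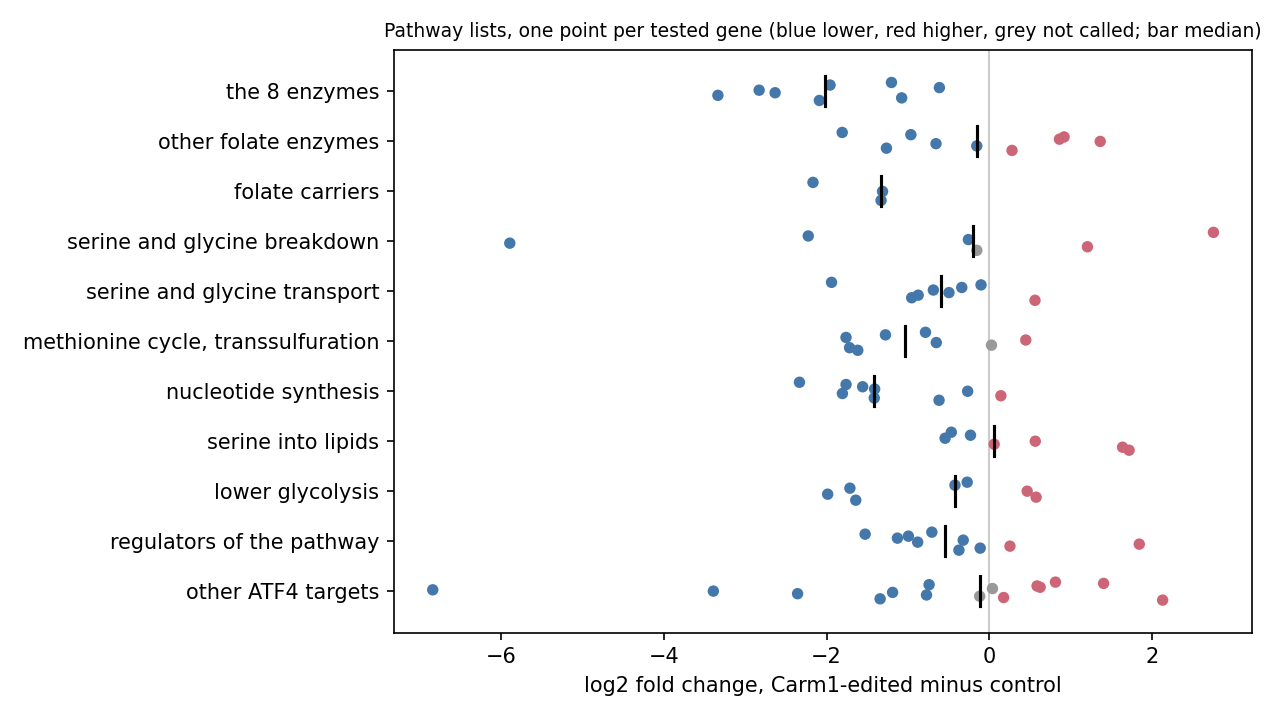
Log2 fold change (Carm1-edited minus control) of every tested gene in the set of 8 enzymes and in 10 lists of other pathway genes; blue points were called lower, red higher, grey not called, and bars are medians. The 8 enzymes (median -2.02) and the nucleotide synthesis genes (-1.41) lie to the left. The other ATF4 targets spread to both sides of 0, as did the calls over all tested genes (43.2% lower and 44.5% higher, not drawn).

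The genes whose profile over the 8 libraries lay closest to the mean profile of the 8 enzymes were Pdia4, an endoplasmic reticulum disulphide isomerase, Nsun2, an RNA methyltransferase, Tubb4b, a tubulin, Gmppb, an enzyme of sugar nucleotide synthesis, and Prmt1, another arginine methyltransferase. Closeness was the root mean square distance between log2 CPM profiles, each centred on its mean, among 8471 genes with a mean of at least 10 CPM. The distances were 0.017, 0.018, 0.020, 0.022 and 0.027. Their falls were 3.86-, 3.84-, 3.87-, 3.95- and 3.81-fold. With 2 groups, such closeness mainly means a fall of like size, and 135 genes lay within 0.1.

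Across the series, library totals ran from 37556330 to 41439998 counts, where 3 counts are 0.0724 to 0.0799 CPM. Carm1 itself was at 95.9 ± 1.04 and 32.8 ± 0.493 CPM (log2 fold change -1.55 ± 0.027), lower in all 4 edited libraries. The labelled cell type showed in its markers, with 8 of 8 CD8 T cell genes tested, 7 higher and 1 lower, and a summed level of 4719 to 4832 CPM in control and 6718 to 6919 CPM in edited libraries. Markers of myeloid cells were lower in 9 of 9 tested of 10 genes, with sums of 115 to 120 CPM in control and 4.28 to 5.20 CPM in edited libraries, where C1qa had no counts. Markers of B cells were mixed (3 higher and 1 lower of 4 tested of 8), with sums of 274 to 281 CPM and 930 to 957 CPM, mostly from Ighm. Ighm rose from 254 ± 2.43 to 925 ± 10.5 CPM, whereas the lower one, Igkc, fell from 17.5 ± 0.674 to 0.306 ± 0.144 CPM. Natural killer cell markers were lower in 3 of 3 tested of 4 (8.57 to 9.57 and 1.87 to 2.82 CPM), and erythroid markers in 2 of 3 tested of 4 (3.90 to 4.48 and 0.143 to 0.384 CPM). CD4 T cell markers were higher in 4 of 4 (8.64 to 9.28 and 38.3 to 41.8 CPM), mostly from Zbtb7b (4.82 ± 0.152 and 33.7 ± 1.20 CPM). Cd4 itself was at 0.168 ± 0.0374 and 0.782 ± 0.150 CPM. The part of these cell types in the fall of the 8 enzymes was not tested. Of 7 melanoma genes, Tyr, Tyrp1, Dct and Sox10 had no counts in any of the 8 libraries, and the sum of the 7 was 4.05 to 4.31 and 13.8 to 15.1 CPM, mostly from Pmel.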

How the data were processed

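The authors deposited whole-number counts per Ensembl gene for each library, made with RSEM (per the labels' protocols) against mm10 (per the submitters' processing notes). RSEM estimates need not be whole, and the columns are laid out as by a read-counting tool, so how whole counts arose is unknown. The sources used here do not name the aligner, annotation release or strand setting. The kit does not mark strand. Symbols came from GENCODE M21 (GRCm38, the assembly of mm10) for 48970 of 49315 identifiers, and those without a symbol held 0.0269% to 0.0535% of counts. Copies of the enzymes were looked for among GENCODE transcripts (at least 95% identity over 150 bases). Counts of libraries within an arm differed by more than sampling noise in all 12 pairs (chi-square per degree of freedom of at least 1.45), so none was taken as a copy.

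Genes were kept with edgeR's filterByExpr (14970 genes, all 8 enzymes among them), scaled with TMM factors (0.938 to 1.07) and tested with robust quasi-likelihood F tests (edgeR 4.0.16, R 4.3.3) with Benjamini-Hochberg adjustment over all tested genes, threshold 0.05. SEs were derived from F, as the log2 fold change over the root of F. TPM used the deposited exon lengths, which cover all annotated exons rather than the isoform made. Ratios were tested by exact permutation (scipy 1.17.1). On simulated counts for this comparison (14970 genes) the edgeR step recovered 78%, 98%, 100% and 100% of genes changed 1.25-, 1.5-, 2- and 4-fold, 50 each. Only these genes changed in the simulation, whereas 87.7% of tested genes passed in the data. The scaling was therefore not tried under so wide a change, and false calls are not given here. The 8 genes and the lists were chosen with earlier results of these data known. Named genes are the 8 enzymes, Carm1, list genes (those with the smallest adjusted p, the most abundant, and exceptions to a list's direction), genes that overlap or copy an enzyme, and the 5 closest profiles, for which 0.5 was added to CPM and predicted genes were left out. Some single genes of the lists are not reported here. Alternatives were other scaling factors (RLE, upper-quartile, library totals alone), other filters (none, or at least 5 CPM in 4 libraries), DESeq2 1.42.0, limma-voom (limma 3.58.1), edgeR's test against a 1.5-fold change, a block for the replicate number, omission of mitochondrially encoded genes or of each library in turn, and for ratios no length scaling or 1 added count.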

Additional observations from a re-analysis of the deposited data

How the results depend on the processing

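Under the 18 alternatives all 8 enzymes stayed lower and called, except that the test against a 1.5-fold change called 7 and left out Psph (log2 fold change -0.61, edgeR adjusted p = 0.17). Upper-quartile factors moved the median of all genes by 0.215 and the share of calls that were higher from 50.8% to 61.0%. Without a filter on low counts that median moved by 0.204, and with library totals alone by 0.160. The test against a 1.5-fold change called 3992 genes higher and 3444 lower, against 6667 and 6468. It also changed list counts by its construction, to 3 lower other folate enzymes, 0 higher and 4 lower transport genes, 0 higher methionine cycle genes, 0 higher nucleotide genes, 2 higher and 0 lower lipid genes, 0 higher and 3 lower glycolysis genes, and 1 higher and 5 lower regulators. The 5 CPM filter, which tests fewer genes, gave 3 lower other folate enzymes, 4 lower transport genes, 2 higher methionine cycle genes and 4 lower ATF4 targets. With no filter, 1 folate carrier and 4 breakdown genes were higher. Upper-quartile factors and library totals alone each gave 2 higher transport genes and 2 higher methionine cycle genes. Among single genes, Slc1a5 (-0.10) reversed with upper-quartile factors (0.11) and library totals alone (0.060) and was not called with the 5 CPM filter (-0.0072). No other gene named in the text reversed. The number of higher nucleotide genes was 0 to 1 with each library left out. The cause of these scaling and filter changes was not tested.

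The titles number the libraries of both arms alike. Deviations of same-numbered libraries from their arm's mean had correlations of -0.31, -0.22, -0.15 and -0.40 over 8730 genes, which gives no sign of pairing by number. Those of differently numbered libraries ran from -0.25 to 0.30. Because deviations are centred within each arm, these correlations are not independent and cannot exclude shared handling. With the replicate block 6611 genes were called higher and 6420 lower, and all 8 enzymes lower. For the ratios the block cannot reach the threshold and says nothing about stability. The paired differences equal the unpaired ones by construction, 0.20 for Shmt2 to Shmt1, 2.26 for Mthfd2 to Mthfd1, 1.25 for Mthfd1l to Mthfd1 and -1.94 for Mthfd2 to Mthfd2l on the log2 scale, at an exact p = 0.125, the smallest that 4 pairs allow. Leaving out each library gave 0.18 to 0.22, 2.23 to 2.29, 1.24 to 1.26 and -1.99 to -1.85, at an exact permutation p = 0.0571, the smallest for 3 against 4. Shmt1, with 475 to 525 counts in an edited library, is the enzyme most limited by depth.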
